A study of Mus musculus with 6 samples.

Results

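SR proteins and heterogeneous nuclear ribonucleoproteins (hnRNPs) are RNA-binding proteins that help to decide how strongly an exon is recognised by the splicing machinery. Their genes were taken from the deposited table by name, as every symbol of the form Srsf followed by a number and every symbol beginning with Hnrnp. That rule found 31 of the 21959 genes, 11 SR genes and 20 hnRNP genes. It did not use any measured value. The libraries came from wild-type (WT) primary bone marrow-derived macrophages (BMDMs) of mouse, cells differentiated in culture from bone marrow. For 24 h these cells were kept in a mixture (1 to 1) of complete medium and medium that alveolar macrophages (AMs), which reside in the air spaces of the lung, had conditioned for 48 h. The donors of the AMs were mice aged 8 to 12 weeks, and the AMs were either HTR2C- or HTR2C+, HTR2C being the serotonin receptor 2C. Libraries N1 to N3 received the HTR2C-negative medium and libraries P1 to P3 the HTR2C-positive medium. The comparison thus asked how recipient macrophages of the same genotype differ by the HTR2C status of the cells that conditioned their medium. Whether the numbered samples were separate cultures, mice or lots of medium is not said in the labels, and p-values therefore reflect the spread of these samples alone, which may be technical. All 6 libraries had conditioned medium, and none with fresh medium alone was analysed here.

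SR proteins carry RNA recognition motifs and a tail rich in arginine and serine, bind enhancer sequences in exons and help recruit the U1 and U2 small nuclear ribonucleoproteins. hnRNPs coat nascent transcripts and often oppose exon inclusion by binding silencer sequences, although many of them act either way depending on where they bind. Many genes of both families hold back their own level through exons that introduce a premature stop codon and so send the transcript to nonsense-mediated decay. In macrophages, hnRNP M is known to slow the splicing of inflammatory transcripts such as Il6. The values below are gene totals and do not separate productive transcripts from those with such exons.

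Total counts per library ranged from 12843971 to 16031723. Read counts were scaled by library size (CPM) with TMM factors of 0.881 to 1.13, which correct for the few very abundant genes of a library, and Actb alone took 7.03% to 13.5% of the counts. N2 and P1 were the most alike pair of libraries in the series (r = 0.980 across genes, which are not replicates), although they belong to different groups. The summed CPM of 10 macrophage marker genes was 24373 to 26357 with HTR2C-negative medium and 23081 to 25909 with HTR2C-positive medium, and none of these markers was at 0. Of 8 neutrophil markers Ly6g was at 0, and their summed CPM was 772 to 979 against 964 to 1239. Of 7 alveolar macrophage markers Fabp1 was at 0, and their summed CPM was 122 to 126 against 116 to 137. The summed CPM of the fibroblast list was 54.5 to 64.4 against 55.7 to 71.5. That of the mast cell and basophil list, with Mcpt4 at 0, was 11.6 to 14.9 against 8.64 to 11.8, and that of the dendritic cell list 3.27 to 8.39 against 6.35 to 9.76. The T cell, B cell and erythroid lists summed to at most 2.71 CPM in any library, with Hbb-bs and Hbb-bt at 0. The part of these other cell types in the results was not tested. In bulk libraries, fewer cells of a type and less RNA per cell cannot be told apart.

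Of the 31 genes, 29 had enough counts for the edgeR quasi-likelihood test, 9 SR genes and all 20 hnRNP genes. None passed a Benjamini-Hochberg adjusted p of 0.05, and neither did any of the 10177 genes tested (0.0% called). At an unadjusted p under 0.05, 4 of the 29 (13.8%) were lower with HTR2C-positive medium, against 8.71% of all tested genes (886). These were Hnrnph2, Srsf10, Srsf2 and Hnrnpk, which are among the most abundant genes of their families. No SR or hnRNP gene was higher at that threshold, against 7.9% of all tested genes (804). With the same test run without N1, the number of lower members was 2, where 4.32% of all tested genes were lower. With 29 genes these shares lie near the background and are no result about the families as a whole.

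For 8 members the groups did not overlap. The 3 libraries with HTR2C-positive medium all lay below the 3 with HTR2C-negative medium for 5 members (17.2%), Hnrnph2, Srsf10, Srsf2, Hnrnpk and Hnrnpf, against 11.5% of all tested genes. They all lay above for 3 members (10.3%), Hnrnpab, Srsf7 and Hnrnpa2b1, against 10.9% of all tested genes. The median log2 fold change (HTR2C-positive minus HTR2C-negative) of the 29 genes was -0.13, beside 0.02 for all tested genes. Of these fold changes 21 were negative and 8 positive. Scaling by total counts alone shifted every gene upward by a like amount, the median of all genes to 0.16 and that of the members to 0.01. Under that scaling the fold changes of Srsf3, Srsf5, Hnrnpa3, Hnrnpd, Hnrnpdl, Hnrnph1 and Hnrnpm turned positive.

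**Figure D1:**
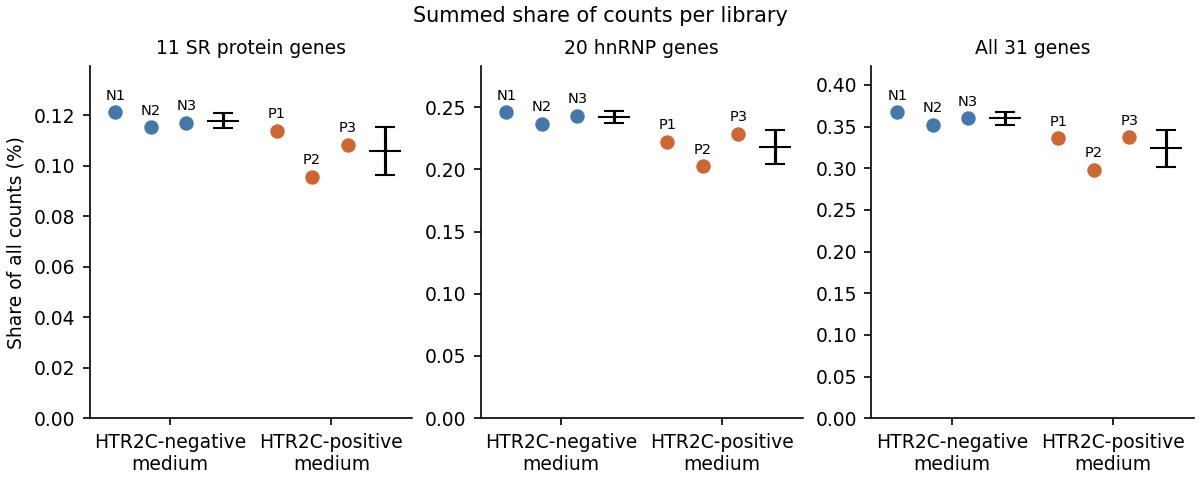
Share of each library's counts (%, y axis) taken by the 11 SR genes, the 20 hnRNP genes and all 31 genes, with 1 point per library and the mean ± SD of 3 libraries as a bar beside them. In each panel the 3 HTR2C-positive libraries lie below the 3 HTR2C-negative ones, with P2 lowest.

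Summed over all 31 genes, the families took 0.367% of counts in N1, 0.352% in N2 and 0.360% in N3. They took 0.336% in P1, 0.298% in P2 and 0.337% in P3. The means were 0.360% ± 0.00752 (SD, n = 3) and 0.324% ± 0.0223 (SD, n = 3), and the groups did not overlap. These are shares of untransformed library totals and so carry no TMM scaling. The SR genes held 0.118% ± 0.00305 with HTR2C-negative medium and 0.106% ± 0.00940 with HTR2C-positive medium, and the hnRNP genes 0.242% ± 0.00466 and 0.218% ± 0.0138 (SD, n = 3 each). The difference between the groups lay in the 4 genes named above, which is a description since they were chosen by their p. Those 4 held 49.3%, 45.2% and 46.1% of the families' counts in N1 to N3 and 41.5%, 39.5% and 36.2% in P1 to P3. The other 27 genes together took 0.186%, 0.193% and 0.194% of all counts in N1 to N3 and 0.197%, 0.180% and 0.215% in P1 to P3, so their groups overlapped.

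The promoters of these 4 genes are shown because they are the members with an unadjusted p under 0.05, and all of them hold the same short motif. Each is the stretch of 200 bases before the gene's start, 5′ to 3′ on the gene's strand, from RefSeq on build GRCm38.p6. Capitals mark CCAAT, or ATTGG where the motif lies on the opposite strand.

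Hnrnph2: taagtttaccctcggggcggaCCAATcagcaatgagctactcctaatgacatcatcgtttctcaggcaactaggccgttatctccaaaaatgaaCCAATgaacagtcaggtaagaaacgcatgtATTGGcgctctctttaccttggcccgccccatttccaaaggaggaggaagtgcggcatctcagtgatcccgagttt

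Srsf10: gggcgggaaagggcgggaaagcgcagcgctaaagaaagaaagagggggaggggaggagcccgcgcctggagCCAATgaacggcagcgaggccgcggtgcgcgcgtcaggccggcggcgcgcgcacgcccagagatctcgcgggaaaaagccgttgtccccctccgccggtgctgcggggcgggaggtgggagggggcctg

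Srsf2: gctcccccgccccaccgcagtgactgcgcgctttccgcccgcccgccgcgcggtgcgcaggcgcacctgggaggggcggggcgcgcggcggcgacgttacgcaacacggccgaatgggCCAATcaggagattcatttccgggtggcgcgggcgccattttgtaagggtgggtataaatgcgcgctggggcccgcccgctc

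Hnrnpk: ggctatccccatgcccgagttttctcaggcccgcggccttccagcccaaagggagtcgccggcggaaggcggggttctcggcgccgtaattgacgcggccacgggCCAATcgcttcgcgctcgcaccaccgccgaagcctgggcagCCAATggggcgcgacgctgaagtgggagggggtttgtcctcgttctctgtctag

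The Hnrnph2 window, chrX:134600979-134601178 on the plus strand, holds the motif 3 times, beginning at -179, -106 and -76 from the start. The Srsf10 window, chr4:135855871-135856070 on the plus strand, holds it once, at -129. The Srsf2 window, chr11:116853095-116853294 on the minus strand, holds it once, at -82, and is the 1 window of the 4 that holds TATAAA. The Hnrnpk window, chr13:58402118-58402317 on the minus strand, holds it at -95 and -54. CCAAT is the recognition sequence of the trimeric factor NF-Y and is a common element of promoters.

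Promoter windows from 250 bases before to 50 after the start were found for 29 of the 31 members. The entries for Hnrnpll and Hnrnpul2 were missing. CCAAT on either strand was in 17 of the 29 (58.6%), against 42.6% of the 8214 tested genes with a window and 37.4% of all 32851 windows. The letters GGGCGG, the GC box bound by Sp1-type factors, were in 24 of the 29 (82.8%), against 69.2% of tested genes and 35.7% of all windows. TATAAA was in 4 of the 29 (13.8%), against 8.67% of tested genes and 13.6% of all windows. Both strands were searched for each motif, and matches of different motifs that shared bases at their ends were each counted. In these longer windows CCAAT was in all 4 of the genes shown above, and GGGCGG was in 3 of the 4. The 4 were chosen by their p, and all of these counts describe letters only.

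Among the SR proteins with 1 RNA recognition motif, Srsf2 and Srsf10 had an unadjusted p under 0.05 and lower levels in P1 to P3, and Srsf3, Srsf7 and Srsf11 did not pass that threshold. Srsf2 (ENSMUSG00000034120, chr11:116740727-116743920 on build GRCm39, as are all coordinates from here on) encodes SC35, a marker protein of nuclear speckles that binds exonic enhancers and is recurrently mutated in myeloid neoplasms. Its level was 445, 260 and 376 CPM in N1 to N3 and 166, 255 and 253 CPM in P1 to P3. The groups were separated only narrowly, by N2 and P2, and N1 was the highest library and P1 the lowest. The log2 fold change was -0.68 (SE 0.22, unadjusted p = 0.00751 and adjusted p = 0.157 by edgeR's quasi-likelihood test).

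Srsf10 (ENSMUSG00000028676, chr4:135583058-135597219) encodes an SR protein that acts as a splicing repressor once it is dephosphorylated in heat shock or mitosis. It stood at 293, 225 and 257 CPM in N1 to N3 and at 167, 180 and 177 CPM in P1 to P3. The HTR2C-positive libraries lay close together, and every one was below N2, the lowest of the HTR2C-negative group. Its log2 fold change was -0.57 (SE 0.15, unadjusted p = 0.00229 and adjusted p = 0.113 by edgeR).

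The other SR proteins of this kind had estimates nearer 0. Srsf3, the smallest SR protein and an adaptor for mRNA export, had 190, 164 and 178 CPM in N1 to N3 and 164, 172 and 163 CPM in P1 to P3, with overlapping groups and a log2 fold change of -0.09 (SE 0.14). Srsf7, which also carries a zinc knuckle, had 59.2, 56.8 and 54.0 CPM against 61.6, 60.6 and 59.2 CPM. Its groups did not overlap, but N1 and P3 were equal to 3 digits, and its log2 fold change was 0.09 (SE 0.14). Srsf11, a protein that interacts with the U2 auxiliary factor, had a log2 fold change of -0.16 (SE 0.15) with overlapping groups.

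The SR proteins with 2 RNA recognition motifs gave log2 fold changes from -0.05 to 0.13 and no member with an unadjusted p under 0.05. Srsf1, the prototype of the family, had 24.2, 27.3 and 29.4 CPM in N1 to N3 and 18.1, 30.9 and 32.6 CPM in P1 to P3. P1 was its lowest library and the other HTR2C-positive libraries its highest. Srsf5 and Srsf6 showed the reverse in P1. Srsf5 had 166, 168 and 177 CPM in N1 to N3 and 214, 124 and 154 CPM in P1 to P3, so that P1 was the highest library and P2 the lowest. Srsf6 had 77.1, 91.9 and 83.4 CPM and then 116, 81.4 and 73.8 CPM. Srsf9, a close relative of Srsf1, had 6.60 to 8.66 CPM in N1 to N3 and 7.54 to 9.07 CPM in P1 to P3. CPM is not scaled by gene length, so these values do not place Srsf9 below Srsf1.

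Srsf4 and Srsf12 had too few counts for the test. Srsf4 had 6, 7 and 6 counts in N1 to N3 and 44, 10 and 13 counts in P1 to P3. P1 held most of them, although every HTR2C-positive library was above every HTR2C-negative one in raw counts. Fitted with no count filter, its log2 fold change was 1.5 with an adjusted p of 0.364 by edgeR. Srsf12 had 1 count in P1 and 0 in the other 5 libraries, where a count of 0 allows up to 3 counts, or 0.187 to 0.234 CPM of the library total without TMM scaling.

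**Figure D2:**
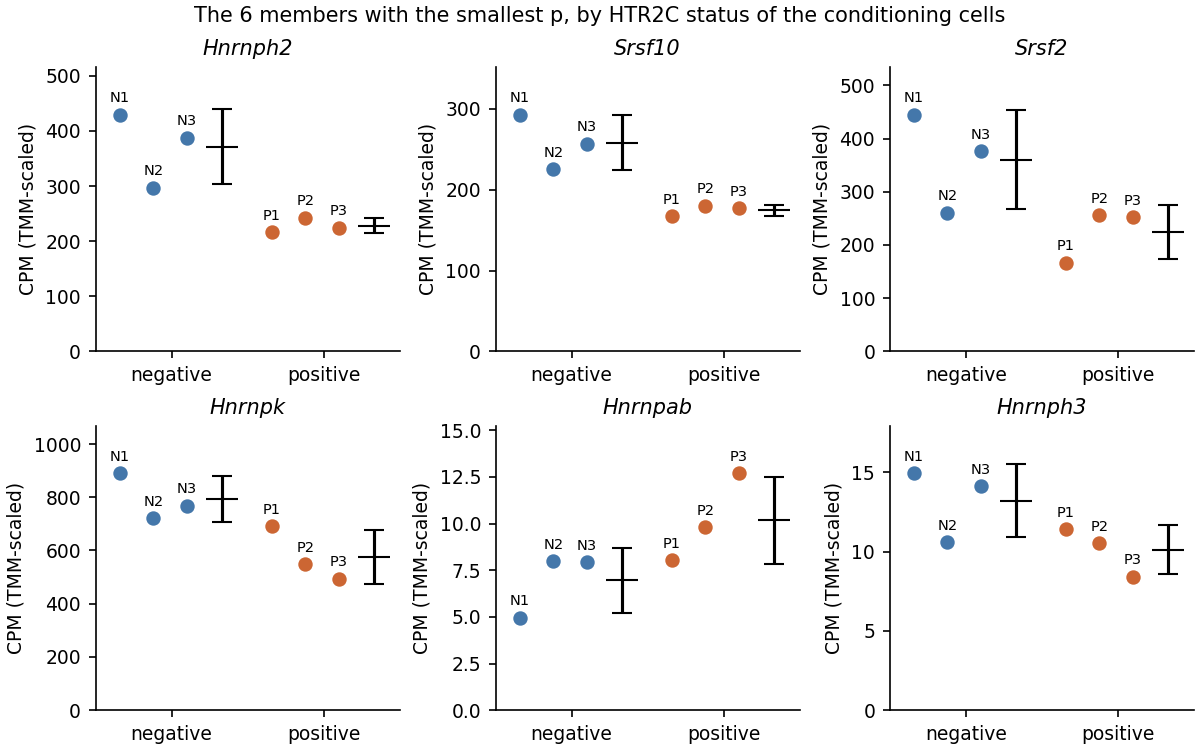
Level in CPM (TMM-scaled, y axis from 0) of the 6 genes with the smallest unadjusted p, with 1 point per library and the mean ± SD of 3 libraries as a bar beside them. Hnrnph2, Srsf10, Srsf2 and Hnrnpk lie lower in all HTR2C-positive libraries, Hnrnpab lies higher, and the groups of Hnrnph3 overlap.

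Within the hnRNP F/H group, proteins that bind runs of G and steer nearby splice sites, Hnrnph2 differed most. Hnrnph2 (ENSMUSG00000045427, chrX:133501928-133507809) is the X-linked paralog of Hnrnph1. It had 430, 297 and 388 CPM in N1 to N3 and 216, 243 and 225 CPM in P1 to P3. The highest HTR2C-positive library, P2, was below the lowest HTR2C-negative one, N2. The mean was 372 ± 67.8 CPM against 228 ± 13.4 CPM (SD, n = 3 each), a level 1.63 times as high with HTR2C-negative medium. Its log2 fold change of -0.71 (SE 0.16) had the smallest p of all members (unadjusted p = 0.000871 and adjusted p = 0.0859 by edgeR).

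The estimates for its paralogs were smaller, and the differences between paralogs were not tested in the fit. Hnrnph1 had 79.7, 61.2 and 69.0 CPM in N1 to N3 and 57.3, 57.0 and 82.2 CPM in P1 to P3, with P3 the highest of all libraries and a log2 fold change of -0.09 (SE 0.18). Hnrnpf had 143, 143 and 137 CPM against 131, 118 and 127 CPM. Its groups did not overlap, but the log2 fold change was only -0.17 (SE 0.14, unadjusted p = 0.234). Hnrnph3 (ENSMUSG00000020069, chr10:62850443-62859996), the shorter relative, had 14.9, 10.6 and 14.1 CPM against 11.4, 10.5 and 8.40 CPM. These groups overlapped through N2, and the log2 fold change was -0.38 (SE 0.22, unadjusted p = 0.112 and adjusted p = 0.413 by edgeR).

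Levels of different genes can be set side by side only per length, and FPKM (counts scaled by gene length and library total) serves that purpose. Hnrnph2 took 60.0%, 52.8% and 59.2% of the summed FPKM of the F/H group in N1 to N3 and 46.7%, 51.7% and 46.9% in P1 to P3. Its share was thus lower in every HTR2C-positive library, although N2 and P2 were close. The mean share was 57.3% ± 3.95 against 48.4% ± 2.86 (SD, n = 3 each; two-sided exact permutation p = 0.1, the smallest that 3 against 3 libraries allow). Hnrnpf took 31.7% ± 4.15 and 38.2% ± 2.31, and Hnrnph1 8.11% ± 0.232 and 10.4% ± 2.12. Shares within a group are tied, and the log2 fold changes of Hnrnpf and Hnrnph1 themselves were negative. Such shares were computed for 31 genes within 7 groups and these were chosen after their values were seen. Adjusted over the 31, the exact permutation p for Hnrnph2 was 0.62.

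**Figure D3:**
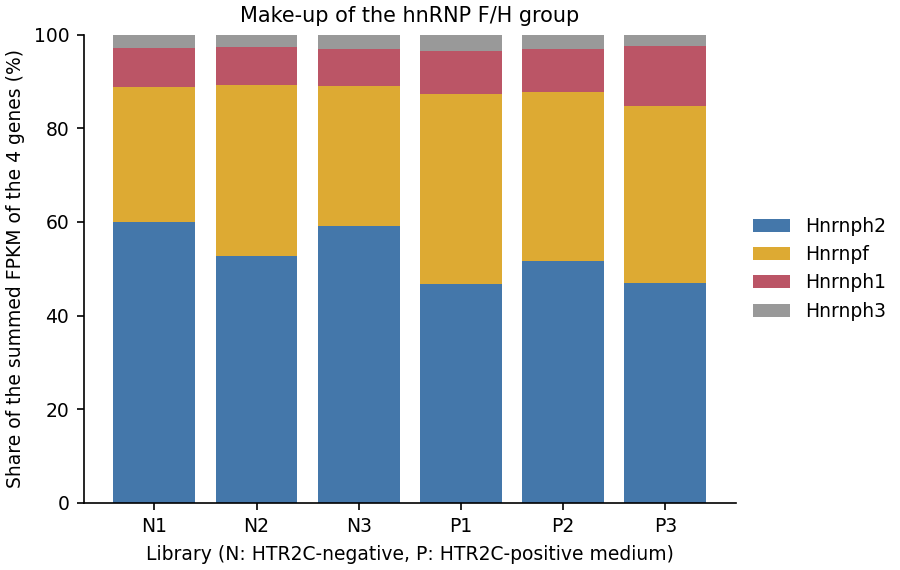
Make-up of the hnRNP F/H group in each library, as the share of the summed FPKM of its 4 genes (%, stacked bars that fill the y axis). The share of Hnrnph2 is 52.8% to 60.0% in the HTR2C-negative libraries and 46.7% to 51.7% in the HTR2C-positive ones.

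The same calculation among the SR proteins with 1 RNA recognition motif put Srsf2 at 57.7% ± 4.56 of the group's summed FPKM with HTR2C-negative medium and 50.3% ± 5.89 with HTR2C-positive medium (SD, n = 3 each; exact permutation p = 0.3). The shares of Srsf3 were 10.9% ± 1.36 and 14.2% ± 1.66, and those of Srsf7 7.81% ± 1.51 and 11.5% ± 1.67 (exact permutation p = 0.1 for each, the smallest possible, and 0.62 adjusted over the 31 shares). Shares within a group are tied, so a lower share of Srsf2 goes with higher shares of the others. The log2 fold changes of Srsf3 and Srsf7 themselves were -0.09 and 0.09.

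Hnrnpk was among the 3 most abundant members. Hnrnpk (ENSMUSG00000021546, chr13:58538956-58551157) encodes a protein with KH domains that binds runs of C and acts in transcription, splicing and translation. It had 890, 722 and 767 CPM in N1 to N3 and 690, 548 and 494 CPM in P1 to P3. N2 and P1 were the nearest libraries of the 2 groups, and P3 was the lowest. The log2 fold change was -0.46 (SE 0.17, unadjusted p = 0.0178 and adjusted p = 0.207 by edgeR). Hnrnpl, which binds CA repeats, had 10.7, 14.0 and 8.00 CPM against 9.36, 7.28 and 13.1 CPM. Its relative Hnrnpll, known for excluding exons of Cd45 in lymphocytes, had 33.8, 22.6 and 27.6 CPM against 20.9, 31.0 and 35.8 CPM. The groups of both genes overlapped widely.

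The hnRNP A/B and D group held no member with an unadjusted p under 0.05, and its log2 fold changes ran from -0.40 to 0.54. Hnrnpa1, the classic silencer-binding hnRNP, had 391, 255 and 376 CPM in N1 to N3 and 195, 335 and 333 CPM in P1 to P3. N2 and P1 were the low libraries of their groups, and the groups overlapped (log2 fold change -0.24, SE 0.22). Hnrnpa0, a protein that binds AU-rich elements of inflammatory mRNAs, also had its lowest levels in N2 and P1, with 55.4, 36.2 and 56.8 CPM and then 25.0, 39.8 and 47.7 CPM (log2 fold change -0.40, SE 0.24, unadjusted p = 0.117). Hnrnpd, known as AUF1 for its part in the decay of cytokine mRNAs, had 40.3, 30.2 and 43.8 CPM against 22.8, 45.2 and 43.6 CPM.

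Hnrnpab (ENSMUSG00000020358, chr11:51490927-51497674) had the largest positive fold change. It had 4.95, 7.98 and 7.93 CPM in N1 to N3 and 8.05, 9.79 and 12.7 CPM in P1 to P3. N2 and P1 differed by less than 0.1 CPM, so the separation of the groups rests on almost nothing there. The log2 fold change was 0.54 (SE 0.27, unadjusted p = 0.0663 and adjusted p = 0.333 by edgeR). Hnrnpa2b1, which also sorts RNAs in the cytoplasm, had 151, 155 and 160 CPM against 163, 165 and 188 CPM, separate groups with a log2 fold change of 0.15 (SE 0.14). Hnrnpa3 and Hnrnpdl had overlapping groups and log2 fold changes of -0.14 and -0.06.

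The remaining hnRNPs also had no unadjusted p under 0.05. Hnrnpc, which binds runs of U in nascent transcripts, had 116, 90.8 and 104 CPM in N1 to N3 and 92.6, 84.0 and 89.7 CPM in P1 to P3, where N2 lay among the HTR2C-positive libraries (log2 fold change -0.22, SE 0.15). Hnrnpm had 86.6, 96.1 and 93.5 CPM against 71.7, 90.9 and 103 CPM, with P1 the lowest and P3 the highest (log2 fold change -0.05, SE 0.16). Hnrnpr had a log2 fold change of -0.24 (SE 0.25). Hnrnpu, also called scaffold attachment factor A, had 153, 122 and 165 CPM against 102, 136 and 155 CPM (log2 fold change -0.16, SE 0.18). Its relatives Hnrnpul1 and Hnrnpul2 had log2 fold changes of 0.02 and -0.34 with overlapping groups.

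**Figure D4:**
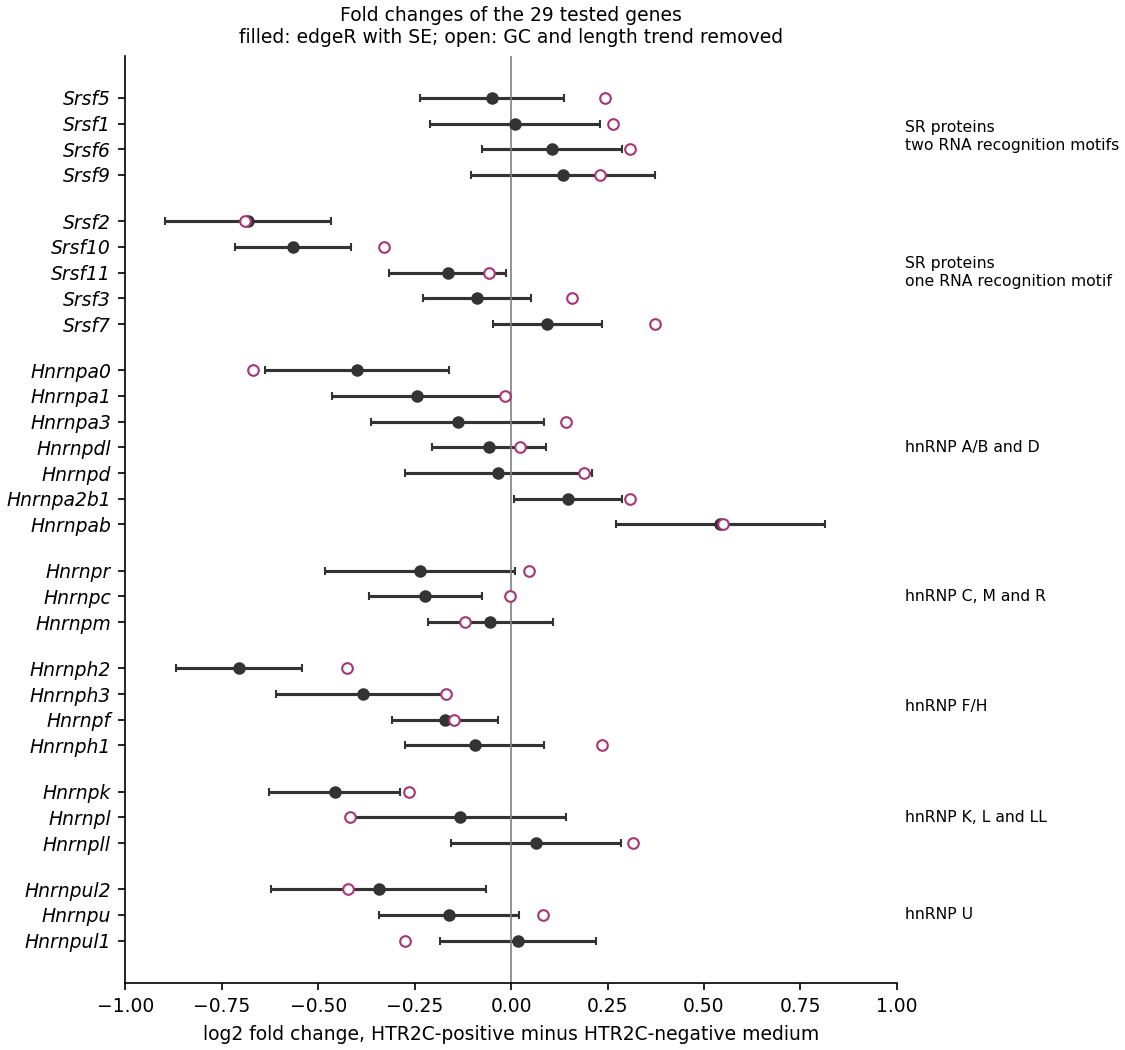
Log2 fold change (x axis, HTR2C-positive minus HTR2C-negative medium) of the 29 tested genes by group of proteins. Filled points with bars are the edgeR estimate ± SE and open points the estimate after the trend with GC content and length was removed; the 4 genes with an unadjusted p under 0.05 lie at -0.46 to -0.71, and the other 25 at -0.40 to 0.54.

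The members spanned a wide range of abundance. Hnrnpk, Hnrnpa1 and Srsf2 had the highest mean FPKM over the 6 libraries, at 105, 98.3 and 96.8. Their spreads overlapped, with 116 ± 5.72, 102 ± 14.0 and 115 ± 19.9 FPKM in the HTR2C-negative group (SD, n = 3 each), so the order among them is not resolved. Hnrnph2 followed at 67.5 and Hnrnpf at 43.8. At the other end of the tested genes were Hnrnpul2, Hnrnpl and Hnrnpr at 2.10, 1.77 and 0.931 FPKM. The value of Hnrnpr depends on the table's gene length of 22199 bases. By mean FPKM, Hnrnpk, Srsf2, Hnrnph2 and Srsf10, the 4 with an unadjusted p under 0.05, were ranked 1, 3, 4 and 7 of 31. Across the 29 genes, level (log2 FPKM) and log2 fold change had r = -0.42, a description over genes that share the same 6 libraries.

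**Figure D5:**
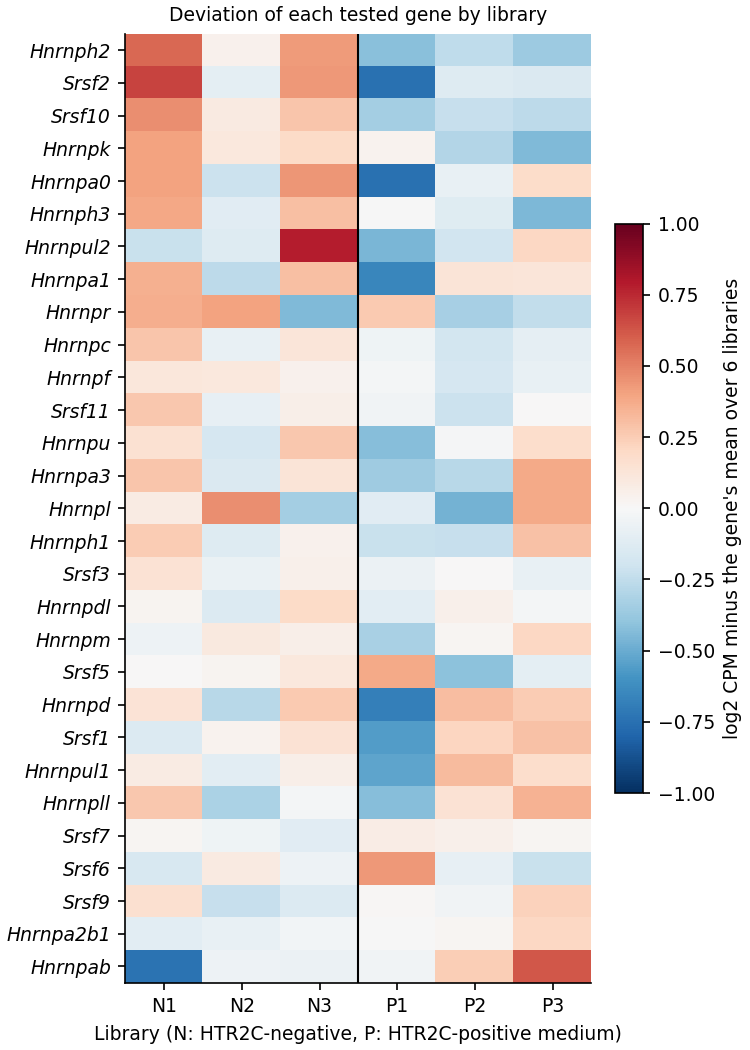
Deviation of each tested gene in each library, as log2 CPM minus that gene's mean over the 6 libraries (colour, from -1 to 1), with genes ordered by fold change. Of the upper rows, Hnrnph2, Srsf2, Srsf10 and Hnrnpa0 are high in N1 and N3 and low in P1, while Hnrnpk and Hnrnph3 are lowest in P3. N2 is close to the mean for many genes.

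The deviations by library show how much of the pattern lay in single libraries. P1 was the lowest library for 13 of the 29 genes (44.8%), among them Srsf2, Hnrnph2, Srsf10, Hnrnpa1, Hnrnpa0, Hnrnpd and Srsf1, against 19.4% of all tested genes. It was the highest for 3, Srsf5, Srsf6 and Srsf7. N1 was the highest library for 10 genes (34.5%), against 22.0% of all tested genes. P3 was the highest for 8 (27.6%), against 16.0%. For Hnrnpa1, Hnrnpa0, Hnrnpd and Hnrnpll, N2 and P1 were both the low libraries of their groups. The same held for Srsf2, Hnrnph2 and Srsf10, which had an unadjusted p under 0.05 by edgeR. It also held for Hnrnpu, Hnrnpul1, Hnrnpa3 and Hnrnpdl.

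The adjusted calls of the members depended on the libraries included, the tool and the count filter. With DESeq2, Hnrnph2, Srsf10 and Srsf2 passed, with adjusted p of 0.00558, 0.0187 and 0.046, where 2.56% of tested genes were called lower, and limma-voom called none of the 10177 genes. Without N2, edgeR gave Hnrnph2 an adjusted p of 0.0276 and Srsf2 one of 0.0467, where 1.21% of genes were called lower. Without both N2 and P1, all 4 passed by edgeR, with adjusted p from 4.44e-05 for Hnrnph2 to 0.00154 for Srsf10, where 6.42% were called lower. N2 and P1 were the most alike libraries of the series, and N2 was the lowest HTR2C-negative library for all 4. As the pair stands out in these same data, that fit is a description and no support for a difference. With no count filter, Hnrnph2 and Srsf2 passed with adjusted p of 0.00759 and 0.0111 by edgeR, where 1.45% of 14861 genes were called lower. Without P1 alone none of the 4 passed, with adjusted p from 0.0605 for Hnrnph2 to 0.192 for Srsf2 by edgeR, although 186 genes were called.

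Fold changes in this series moved with transcript GC content. Across 10162 tested genes with a GC value, log2 fold change and GC content had r = 0.52, while across the 29 members r was 0.02, again over genes that share the same libraries. The median GC content was 42.9% for the members and 48.9% for all tested genes. With the trend on GC and length removed within edgeR, Hnrnph2 had a log2 fold change of -0.43 (unadjusted p = 0.0135), Srsf10 -0.33 (unadjusted p = 0.0296) and Srsf2 -0.69 (unadjusted p = 0.0133). Hnrnpk then had -0.26 and no longer passed (unadjusted p = 0.129). In that fit Hnrnpa0 was also lower at -0.67 (unadjusted p = 0.0377), and Srsf7 and Hnrnpa2b1 were higher at 0.37 (unadjusted p = 0.0146) and 0.31 (unadjusted p = 0.0341). By the same threshold, 5.45% of all tested genes were lower in that fit and 4.39% higher. The members' median became 0.02, beside 0.01 for all tested genes.

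Some members lie over other genes, and whether the counting used strand is not given in the sources used here. Hnrnpk overlaps Rmi1 on the opposite strand (mean 11.4 CPM), and Srsf2 overlaps Mfsd11 (6.29 CPM) and Mettl23 (17.6 CPM). These levels are small beside the mean of 685 CPM for Hnrnpk and 293 CPM for Srsf2. In all, 7 of the 31 genes overlapped another gene, and for Hnrnpab the neighbour Phykpl stood at 4.86 CPM beside its own mean of 8.57 CPM. Hnrnpa1 has many processed pseudogene copies, and how reads shared with them were counted is likewise not given.

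The genes that work with these proteins were taken from 6 lists of splicing and decay factors, with 132 of 136 genes tested. None passed the adjusted threshold, and at an unadjusted p under 0.05 there were 5 higher (3.79%) and 16 lower (12.1%), beside 7.9% and 8.71% of all tested genes. By total counts alone 6 were lower and 9 higher, a fit for which the share of all tested genes is not given here. With the trend on GC and length removed 6 were lower and 8 higher, where 5.45% and 4.39% of all tested genes were. These counts are no result about the lists. The median log2 fold change of the 132 genes was 0.01 with TMM scaling. Of 19 other proteins with arginine and serine rich stretches and their coactivators, 5 were lower (26.3%) and 1 higher (5.26%). Luc7l3, a partner of the U1 particle, had 146, 115 and 132 CPM in N1 to N3 and 88.3, 85.4 and 83.5 CPM in P1 to P3, so the groups were well apart (log2 fold change -0.61, unadjusted p = 0.00105). Rsrc2 and Srek1 had log2 fold changes of -0.65 (unadjusted p = 0.0037) and -0.51 (unadjusted p = 0.0141). With the trend removed Luc7l3 had -0.38 (unadjusted p = 0.0134), while Rsrc2 at -0.34 (unadjusted p = 0.0653) and Srek1 at -0.25 (unadjusted p = 0.144) no longer passed.

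Of 11 tested kinases and import factors of SR proteins, 2 were lower (18.2%) and none higher, too few to read against the 8.71% of all tested genes. Clk1, a nuclear kinase that phosphorylates SR proteins and releases them from speckles, had 292, 207 and 236 CPM in N1 to N3 and 181, 162 and 140 CPM in P1 to P3. No HTR2C-positive library reached the lowest HTR2C-negative one (log2 fold change -0.61, unadjusted p = 0.00311). Clk4, its close relative, had -0.39 (unadjusted p = 0.0419) with overlapping groups, and after the trend on GC and length was removed the values were -0.32 (unadjusted p = 0.0677) for Clk1 and -0.09 (unadjusted p = 0.618) for Clk4. Dyrk1a, another kinase of splicing factors, had -0.41 (unadjusted p = 0.13) with overlapping groups.

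Of 33 other splicing RNA-binding proteins, 3 were higher and 3 lower (9.09% each), which is near the 7.9% and 8.71% of all tested genes. Mbnl1, the muscleblind regulator of developmental exons, had 588, 523 and 445 CPM in N1 to N3 and 351, 339 and 284 CPM in P1 to P3, again with no overlap (log2 fold change -0.68, unadjusted p = 0.00105). The RNA helicase Ddx17 had the opposite sign at 0.52 (unadjusted p = 0.0071), as did Celf1, which binds GU-rich elements, at 0.37 (unadjusted p = 0.0296). With the trend removed within edgeR, Mbnl1 had -0.37 (unadjusted p = 0.0482), Ddx17 0.44 (unadjusted p = 0.0146) and Celf1 0.42 (unadjusted p = 0.0105).

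Of 23 tested U1, U2 and Sm proteins none had an unadjusted p under 0.05, and their median log2 fold change was 0.14. Snrpg, a protein of the Sm ring, had the smallest p there, with a log2 fold change of 0.42 (unadjusted p = 0.0547) and 0.61 (unadjusted p = 0.0059) with the trend removed. Sf3b1, the branch site protein of the U2 particle, had -0.25 (unadjusted p = 0.0887), and Sf1, which recognises the branch point first, had 0.30 (unadjusted p = 0.1). Both were nearer 0 with the trend removed, at -0.04 and -0.03. Of 31 tri-snRNP and catalytic factors 5 were lower (16.1%) and 1 higher (3.23%), again beside 8.71% and 7.9% of all tested genes. Crnkl1, a factor of the catalytic complex, had -0.70 (unadjusted p = 0.0037). The others named by the same rule had -0.57 for Slu7 (unadjusted p = 0.00237), which acts in the choice of the 3′ splice site, and 0.56 for Prpf8 (unadjusted p = 0.0232), the central scaffold of the catalytic core. With the trend removed within edgeR, Prpf8 had 0.41 (unadjusted p = 0.0525). In that fit Crnkl1 had -0.53 (unadjusted p = 0.0175) and Slu7 -0.45 (unadjusted p = 0.0103). Of 15 decay and exon junction genes only Upf3b was called at that threshold, at -0.70 (unadjusted p = 0.0135), in overlapping groups, and it had -0.46 (unadjusted p = 0.0674) with the trend removed. Smg9 had 0.53 (unadjusted p = 0.0707) and Upf1, the helicase of the decay pathway, 0.39 (unadjusted p = 0.102). The sign of both turned negative, to -0.00095 for Smg9 and -0.069 for Upf1, with GC content and length taken out of the fit.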

How the data were processed

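RNA of the recipient macrophages was sequenced (Trizol extraction and the VAHTS Universal V6 kit, per the labels' protocols). Build GRCm39 and the tools fastp, HISAT2, StringTie and edgeR appear, without versions, in the submitters' processing notes. The deposited read counts are whole numbers per gene, per the file headers. The FPKM values the authors deposited are counts per gene length and library total (largest relative difference 3.80e-07).

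Counts were tested in R 4.3.3 with edgeR 4.0.16 (filterByExpr, TMM, robust quasi-likelihood F test, no covariate, N1 to N3 against P1 to P3), with Benjamini-Hochberg adjustment over 10177 genes and a threshold of 0.05. GC content came from GENCODE M21 transcripts and was used for that alone. Alternatives were DESeq2 1.42.0, limma 3.58.1 (voom), other scalings and filters, a replicate block, the GC and length trend removed (mgcv 1.9.3), and libraries left out. The procedure was tested on simulated data. The floor for an undetected gene, 3 counts or 0.187 to 0.234 CPM of the library total, covers counting error only. Values of every library were given for the 6 members with the smallest p and for further members picked, after their values were seen, to show the range of their group. The 3 genes with the smallest p were named per pathway list. The members and lists were chosen with earlier results of these data known.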

Additional observations from a re-analysis of the deposited data

How the results depend on the processing

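The count of genes called at an adjusted p under 0.05, 0 with edgeR, was 422 with no count filter, 394 with DESeq2, 1107 without N2 and P1, and 0 to 206 with 1 library left out (206 without N2, 186 without P1). Members with an unadjusted p under 0.05 and a higher level numbered 1 with no filter, 2 with the GC and length trend removed (also with the block), 1 without N2 and P1, and 0 to 1 with 1 library left out. Lower members numbered 1 with trend and block, 8 without N2 and P1, and 2 to 5 with 1 library left out. The share of all tested genes at that unadjusted threshold is not given here for most of these fits. These counts, and those of the pathway genes below, are thus no result about the members or lists. The members' median log2 fold change was 0.012 by total counts, 0.022 with the trend removed and 0.025 with trend and block. The SR median was 0.11, 0.23 and 0.21 in those fits, 0.027 with no filter, and -0.098 to 0.033 with 1 library left out. Pathway genes higher numbered 9 by total counts, 10 with no filter, 3 with the block, 8 with the trend removed, 12 without N2 and P1 and 2 to 9 with 1 library left out. Those lower numbered 6 by total counts, 8 with the block, 6 with the trend removed, 5 with trend and block and 7 to 17 with 1 library left out. The pathway median was 0.14 by total counts and -0.043 to 0.018 with 1 library left out.

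None of 64 values for the 4 members with p under 0.05 reversed, nor did 345 of 400 for the other 25. The 4 were chosen by their p, and every fit used these same libraries or part of them. Their lack of reversals is therefore a description and no support for a difference. Reversed log2 fold changes with the trend removed were 0.046 for Hnrnpr, 0.082 for Hnrnpu, 0.16 for Srsf3, 0.14 for Hnrnpa3, 0.24 for Hnrnph1, 0.022 for Hnrnpdl, 0.24 for Srsf5, 0.19 for Hnrnpd, -0.28 for Hnrnpul1, -0.029 for Sf1, -0.00095 for Smg9 and -0.069 for Upf1. With the replicate block as well they were 0.055 for Hnrnpr, 0.075 for Hnrnpu, 0.16 for Srsf3, 0.12 for Hnrnpa3, 0.22 for Hnrnph1, 0.025 for Hnrnpdl, 0.21 for Srsf5, 0.14 for Hnrnpd, -0.31 for Hnrnpul1, -0.031 for Sf1, -0.023 for Smg9 and -0.066 for Upf1. By total counts they were 0.053 for Srsf3, 0.012 for Hnrnpa3, 0.056 for Hnrnph1, 0.082 for Hnrnpdl, 0.072 for Hnrnpm, 0.11 for Srsf5 and 0.10 for Hnrnpd. Without N2 and P1 they were -0.034 for Srsf6, 0.15 for Hnrnpl, 0.13 for Hnrnpm and 0.094 for Hnrnpd. They were -0.027 for Hnrnpul1 and -0.044 for Srsf1 with limma-voom, and -0.020 for Hnrnpul1 and -0.027 for Srsf1 with the replicate block. With 1 library left out the values ran from -0.54 to 0.067 for Hnrnpul2, -0.29 to 0.0078 for Hnrnpu, -0.40 to 0.016 for Hnrnpa3, -0.10 to 0.24 for Srsf6, -0.29 to 0.012 for Hnrnph1, -0.38 to 0.10 for Hnrnpl, -0.13 to 0.044 for Hnrnpdl, -0.17 to 0.10 for Hnrnpm, -0.10 to 0.28 for Hnrnpll, -0.27 to 0.11 for Srsf5, -0.20 to 0.24 for Hnrnpd, -0.15 to 0.25 for Hnrnpul1 and -0.13 to 0.25 for Srsf1. The cause was not tested.

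The deviations of libraries of the same number from their group means had r = -0.15, -0.23 and 0.053. With 3 libraries a group, centred on their own mean, these values cannot tell whether the samples were paired. With the replicate block the members' median was -0.14, with 4 lower, 0 higher and 0 called after adjustment. With 3 libraries a group and fewer than 60 counts a library, Srsf4 cannot be placed. Even changes of several SE could go uncalled, as Hnrnph2 at -0.71 (SE 0.16) had an adjusted p of 0.0859 by edgeR.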
